A study of Paralichthys olivaceus with 22 samples.

Results

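This account covers 44 array probes of the Japanese flounder (Paralichthys olivaceus) kidney whose signal was low 6 h after an E. tarda preparation and close to the control level at 12 h. They were 44 of the 14052 probes named for JFC contigs, which are assembled flounder transcripts. The probes were chosen on measured values: a mean log2 signal at least 1.5 below the PBS arrays at 6 h after E. tarda FKC, between 0.5 below and 1.49 above them at 12 h, less than 1 above them at 12 h after S. iniae FKC, and a signal well above background on all 4 PBS arrays of 6 h. The differences that made this choice are therefore given below as a description, without a test; the one test reported, of S. iniae FKC against PBS at 6 h, shares the PBS arrays of 6 h with the choice.

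Fish received E. tarda FKC, S. iniae FKC or PBS as the control, and total RNA of the kidney was taken at 6 h and 12 h. FKC is the labels' own abbreviation and is not spelled out there; in fish vaccine work it usually stands for formalin-killed cells. Each of the 22 samples was hybridised to its own 1-colour Agilent array, with 3 arrays each for E. tarda FKC and S. iniae FKC at 6 h, and 4 arrays each for PBS at 6 h and for all 3 treatments at 12 h. The labels give no strain, genotype, age, dose or route, and do not say whether samples of a group came from separate fish, so any p-value measures the spread between these samples only.

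In bony fish the kidney serves as a blood-forming and immune organ as well as an excretory one: it holds precursors of red and white blood cells, mature lymphocytes and phagocytes beside renal tubules and hormone-producing cells. Edwardsiella tarda is a Gram-negative and Streptococcus iniae a Gram-positive pathogen of farmed flounder, and their surfaces present different microbial molecules to the fish's innate receptors. In RNA from whole kidney, fewer cells of a type and less RNA per cell cannot be told apart. The files pair the contigs with no gene name, and 0 of the 14478 names on the array matched the RefSeq gene table given with the data. No function, pathway or cell type can therefore be attached to the 44 probes here, no marker list could be applied, and the tissue label could not be checked against marker genes.

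Levels are log2 processed signals minus the 75th percentile of the same array. The 75th percentile was between 209 and 470 signal units, 8084 to 10666 of the 14481 probes of an array were well above background, and no spot was saturated. The scanner software's detrending fit had a root mean square of 0.15 to 0.24 on the 6 h FKC arrays and 0.06 to 0.09 on all others. The part of this difference in the results was not tested. All 6 h FKC arrays lay on one slide, all 12 h FKC arrays on the second and all PBS arrays on the third, and each slide was scanned once. A difference between FKC and PBS, or between the times within an FKC treatment, can thus not be told apart from a difference between slides. E. tarda against S. iniae FKC and PBS at 12 h against 6 h were compared within a slide. On each slide, though, the groups compared lay in different rows. E. tarda FKC and the PBS arrays of 6 h were in row 1, S. iniae FKC and the PBS arrays of 12 h in row 2. These comparisons can therefore not be told apart from a difference between rows. Beside the changes below, 6 spike-in control probes that were well above background on all arrays differed by −0.95 to −0.00 log2 units between E. tarda FKC and PBS at 6 h (mean −0.39), by −0.43 to −0.15 between E. tarda and S. iniae FKC at 6 h (mean −0.29), and by −0.25 to −0.09 between PBS at 12 h and 6 h (mean −0.19). Their part in the results was not tested.

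At 6 h the E. tarda FKC mean minus the PBS mean ran from −3.58 to −1.502 log2 units over the 44 probes, as the choice required. The median change was −1.77, against −0.11 over the 8087 JFC probes detected on all PBS arrays of 6 h. Few members stood clear of the limit: 6 had a change of −2 or less, and the other 38 lay between that value and the limit. The member nearest the limit had a change of −1.502 and the nearest probe outside it −1.494, with 9 members and 18 other probes within 0.1 of it. All 3 E. tarda arrays lay below all 4 PBS arrays in 41 of the 44 members, where the same held for 20.9% of the 8087 probes; the choice used this contrast.

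At 12 h the E. tarda change ranged from −0.46 to 0.99, with a median of −0.16 beside −0.15 over the 8087 probes. It was below 0 in 29 members and above 0 in 15, and exceeded 0.5 in 4. The nearest probe outside the lower limit had −0.50, with 6 members and 7 other probes within 0.1 of that limit; no probe lay above the upper limit. The S. iniae change at 12 h ranged from −1.84 to 0.72 with a median of −0.09, and 6 members were below −0.5. The nearest probe outside the S. iniae limit had 1.02. Of 209 detected probes with a 6 h change of −1.5 or less, 161 were still below −0.5 at 12 h and 4 exceeded the S. iniae limit. A further 93 probes met the value conditions but were not detected on all PBS arrays of 6 h.

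**Figure D1:**
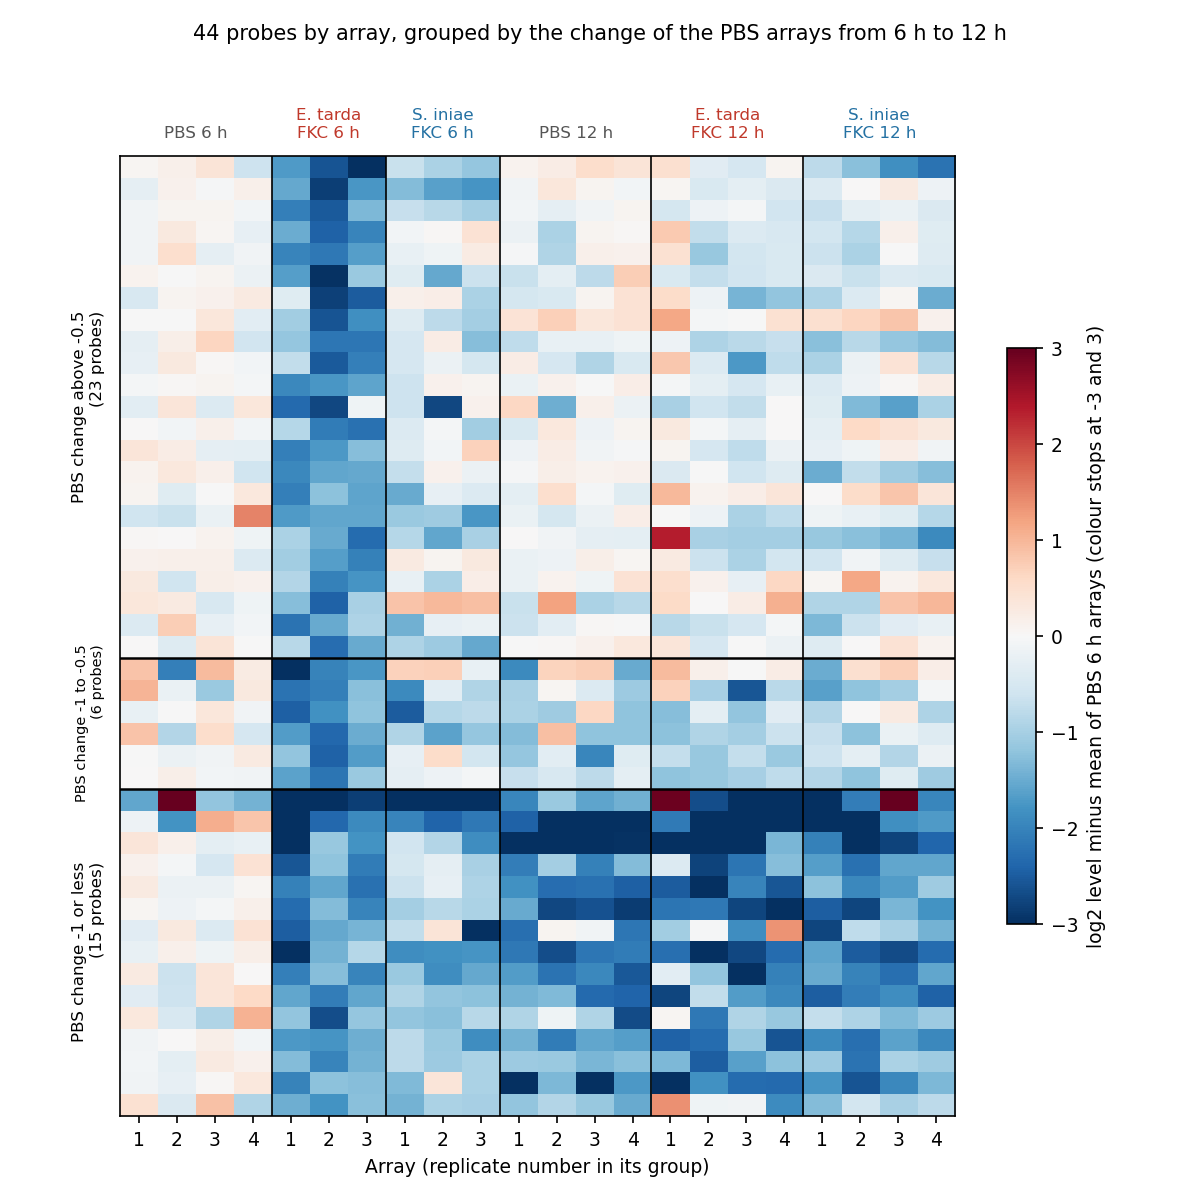
Log2 level of each of the 44 probes (rows) on each of the 22 arrays (columns), as the difference from the probe's own mean over the PBS arrays of 6 h; colours stop at −3 and 3. Rows are grouped by the change of the PBS arrays from 6 h to 12 h. In the upper 23 probes most PBS 12 h arrays stay near the 6 h level, and most E. tarda 12 h arrays return towards it. In the lower 15 most PBS 12 h arrays are themselves blue, and single ones stay near the 6 h level.

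The largest difference at 6 h belonged to CUST_7803_PI426483990 (contig JFC01277_2_code), singled out after its values were seen. Its levels on the PBS arrays of 6 h were −0.91, 4.81, −0.54 and −0.78, on the E. tarda arrays −3.21, −3.42 and −2.18, and on the S. iniae arrays −2.88, −2.77 and −3.10. At 12 h they were −1.32, −0.48, −0.95 and −0.80 for PBS, 3.58, −2.03, −3.16 and −2.42 for E. tarda, and −3.69, −1.44, 3.98 and −1.31 for S. iniae. A single array in each of 3 groups was far brighter than the rest of its group. The 6 h change of −3.58 became −2.19 without the bright PBS array, and the S. iniae change of −3.56 became −2.17. The E. tarda change at 12 h, −0.12, became −1.65 without the bright E. tarda array, which puts the probe outside the limits of the choice. The other 2 probes of the contig gave E. tarda changes at 6 h of −1.04 and −0.03, so the probes of this contig did not move alike.

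CUST_7467_PI426483990 (contig JFC27738_1_code) had the largest difference at 6 h among the members detected on all 22 arrays. Its PBS levels at 6 h were 0.41, 0.51, 0.75 and −0.28, and its E. tarda levels −1.34, −2.23 and −2.78, a 5.53-fold lower mean signal. The S. iniae levels at 6 h, −0.32, −0.59 and −0.82, lay between those of the other groups without overlap with either. At 12 h the PBS levels were 0.44, 0.57, 0.88 and 0.74 and the E. tarda levels 0.83, 0.01, −0.16 and 0.43. Only replicate 1 of E. tarda FKC, at 0.83, overlapped with PBS. Without it the E. tarda change at 12 h went from −0.38 to −0.57, outside the limits of the choice. The S. iniae levels at 12 h were −0.44, −0.91, −1.49 and −1.87, all below both other groups, and the mean change from PBS was −1.84. At 12 h this probe was thus lowest after S. iniae FKC, with the E. tarda mean between that level and the control.

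CUST_11367_PI426483990 (contig JFC26331_1_code), the next by size, was low on all 6 h arrays of both preparations. PBS levels at 6 h were −0.69, −0.30, −0.46 and −0.28, E. tarda levels −1.96, −3.27 and −2.17, and S. iniae levels −1.75, −2.06 and −2.21. The E. tarda mean was 4.09-fold below PBS, and the arrays of the 2 preparations overlapped with each other but not with PBS. At 12 h the levels were −0.55, −0.09, −0.36 and −0.52 for PBS, −0.37, −0.90, −0.73 and −0.86 for E. tarda, and −0.85, −0.41, −0.17 and −0.59 for S. iniae. All 3 groups overlapped at 12 h, but of the E. tarda arrays only replicate 1, at −0.37, overlapped with PBS. Without that array the E. tarda change at 12 h went from −0.34 to −0.45. The probe met the conditions without any single one of the 22 arrays.

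The highest E. tarda changes at 12 h among members detected on all arrays were those of CUST_6372_PI426483990 (contig JFC12342_1_code) and CUST_1170_PI426483990 (contig JFC04911_1_code). CUST_1170_PI426483990 had PBS levels at 6 h of −0.33, −0.38, −1.14 and −0.78, E. tarda levels of −1.94, −3.07 and −1.62, and S. iniae levels of 0.20, 0.32 and 0.24. E. tarda arrays were thus below, and S. iniae arrays above, every PBS array of 6 h. At 12 h its levels were −1.31, 0.56, −1.61 and −1.49 for PBS, −0.08, −0.63, −0.42 and 0.42 for E. tarda, and −1.56, −1.56, 0.20 and 0.33 for S. iniae. The E. tarda change at 12 h was 0.78, and 1.29 without the one bright PBS array.

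CUST_6372_PI426483990 lay nearest the 6 h limit. Its PBS levels at 6 h were −1.24, −2.12, −0.82 and −2.61, its E. tarda levels −3.15, −3.49 and −2.96, and its S. iniae levels −3.12, −2.64 and −2.69. At 12 h the levels were −2.89, −2.58, −2.84 and −3.20 for PBS, −0.32, −1.83, −1.80 and −3.58 for E. tarda, and −2.99, −2.25, −2.67 and −2.47 for S. iniae. The E. tarda arrays of 12 h spread over a wider range than any other group of this probe and reached both above and below PBS. The E. tarda change at 12 h of 0.99 became 0.47 without the highest of these arrays, replicate 1. The PBS level itself was lower at 12 h than at 6 h on average, with a change of −1.18.

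**Figure D2:**
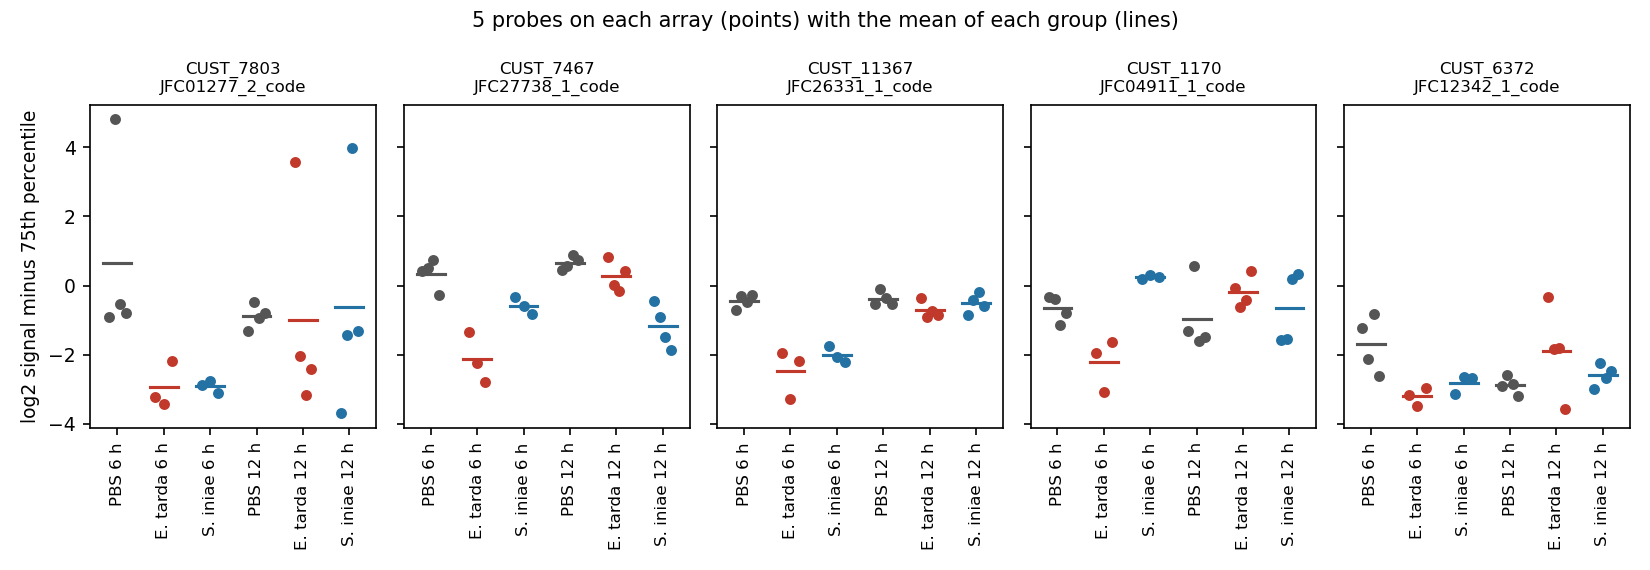
Log2 level of 5 probes on each array (points) with the mean of each group (lines), for PBS, E. tarda FKC and S. iniae FKC at 6 h and 12 h. The first panel shows single bright arrays at 4.81, 3.58 and 3.98; in the others the E. tarda 6 h points are the lowest or share the lowest range at 6 h.

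The preparations were next set side by side at 6 h. The S. iniae change at 6 h, which the choice did not use but which shares its PBS arrays, had a median of −0.85 over the members and −0.03 over the 8087 probes. It was −1 or less in 18 members, between −1 and −0.5 in 13 and within 0.5 of 0 in 12, and ranged from −3.56 to 0.91. It was above 0 in 5, a count that overlaps the 12. Of the 8087 probes, 141 had a change of −1 or less, 6735 lay within 0.5 of 0 and 3734 were above 0. None of the members was higher than PBS by 1 or more, beside 120 of the 8087 probes. All S. iniae arrays lay below all PBS arrays of 6 h in 21 members, against 8.63% of the 8087 probes.

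Limma, fitted over 11066 probes with the 6 group means, called 5 of the 44 members lower after S. iniae FKC at 6 h at a Benjamini-Hochberg adjusted p below 0.05, and none higher; it called 0.551% of all tested probes lower. Because high values on the PBS arrays of 6 h also chose the members, their S. iniae change is shifted downwards in advance, and neither this count nor the p-values of single members below support a lower level; they are printed as values of the fit across all probes. CUST_11367_PI426483990 had a change of −1.57 (SE 0.25, limma adjusted p = 0.00276). The others, named after their values were seen, were CUST_7288_PI426483990 at −1.82 (SE 0.36, limma adjusted p = 0.0140), CUST_9311_PI426483990 at −1.26 (limma adjusted p = 0.0344), CUST_11352_PI426483990 at −1.13 (limma adjusted p = 0.0280) and CUST_6541_PI426483990 at −1.18 (limma adjusted p = 0.0441). CUST_7288_PI426483990 was not well above background on any S. iniae array of 6 h, so its measured change is stated as a bound below. The fit left out a flagged outlier spot of CUST_11352_PI426483990 that the choice of members kept. In a fit that kept outlier spots, chosen after seeing the data, 4 members were called lower, and CUST_11352_PI426483990 was not among them. At an unadjusted p under 0.05, 21 members were lower and none higher, beside 6.61% of all probes lower. CUST_7467_PI426483990 did not pass (−0.93, limma adjusted p = 0.226), nor did CUST_1170_PI426483990 (0.91, limma adjusted p = 0.481) or CUST_6372_PI426483990 (−1.12, limma adjusted p = 0.342). Without single arrays the count of called members was between 1 and 5, and it was 1 without replicate 2 or replicate 3 of S. iniae FKC, 2 without replicate 1 or replicate 3 of PBS, and 3 without replicate 4 of PBS.

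Within the 6 h slide, but between its rows, the E. tarda mean was below the S. iniae mean in 43 of 44 members, beside 4424 of the 8087 probes. The median difference over the members was −0.995, and the choice used the E. tarda arrays. All E. tarda arrays lay below all S. iniae arrays in 19 members, beside 17.6% of the 8087 probes. To use arrays that had no part in the choice, the probes were chosen again without one E. tarda array of 6 h, and that array was compared with the S. iniae mean. The median difference was −0.34 over 80 probes for replicate 1, −0.61 over 43 for replicate 2 and −0.47 over 58 for replicate 3, with −0.06, −0.07 and −0.03 over all detected probes. The left-out array was below the S. iniae mean in 56 of 80, 38 of 43 and 48 of 58 probes, beside 54.3%, 54.2% and 51.5% of all detected probes. It was below every S. iniae array in 39 of 80 probes for replicate 1 (48.8%, beside 37.7% of all detected probes), in 25 of 43 for replicate 2 (58.1%, beside 40.5%) and in 29 of 58 for replicate 3 (beside 37.4%). Each of these medians was below 0 and smaller in size than the −0.995 of the 44 members over all arrays. The probe sets differed, with 37, 31 and 40 probes shared with the 44. The left-out arrays lay in the same slide row as the other E. tarda arrays, so a row difference would enter them too. The 6 spike-in probes differed by −0.43 to −0.15 between the preparations at 6 h, and their part was not tested.

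**Figure D3:**
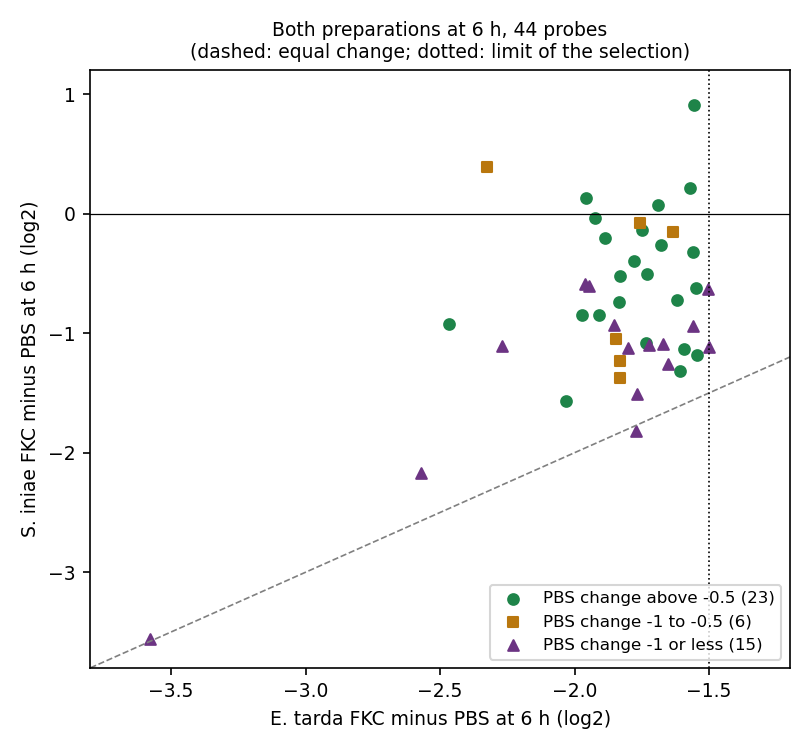
E. tarda FKC minus PBS (horizontal) against S. iniae FKC minus PBS (vertical) at 6 h in log2 units, one point for each of the 44 probes, marked by the change of the PBS arrays from 6 h to 12 h. The dotted line is the limit of the choice at −1.5 and the dashed line marks equal change: 43 points lie above it, and 5 lie above 0 for S. iniae. Both axes share the PBS arrays of 6 h.

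At 12 h the preparations lay closer together in these members. The choice used the low E. tarda arrays of 6 h and limited both changes from PBS at 12 h, so it fixed part of this. The median difference between E. tarda and S. iniae FKC at 12 h was −0.06 over the members and −0.09 over the 8087 probes. It was −1 or less in 1 member and 1 or more in 3, beside 441 and 453 of the 8087 probes. Between the times, the S. iniae level changed by a median of −0.34 over the members, beside −0.04 over the 8087 probes. It was higher by 1 or more at 12 h in 5 members and lower at 12 h in 26. Of the 8087 probes, 220 were higher by 1 or more and 4300 were lower.

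Beside 271 of the 8087 probes, the S. iniae change at 12 h was −1 or less in 3 members. They were CUST_7467_PI426483990 at −1.84, and, named after their values were seen, CUST_11352_PI426483990 at −1.27 and CUST_11138_PI426483990 at −1.24. Among the 5 members above PBS after S. iniae FKC at 6 h, singled out after its values were seen, CUST_9910_PI426483990 (contig JFC14446_1_code) had an E. tarda change of −2.33 and an S. iniae change of 0.39 at 6 h, followed at 12 h by 0.85 and 0.49 respectively. Its PBS levels at 6 h were 0.87, −2.04, 0.97 and 0.27, and its E. tarda levels −3.22, −1.99 and −1.72, so that one PBS array lay among the E. tarda arrays. CUST_4022_PI426483990 (contig JFC20076_1_code), named for the same reason, had a narrower PBS group of −1.15, −0.77, −0.99 and −1.29, E. tarda levels of −2.53, −3.47 and −3.03, and S. iniae levels of −1.14, −1.01 and −0.61, so that here the E. tarda arrays alone stood apart from PBS.

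The level over time was then followed within each treatment, since a difference from PBS near 0 at 12 h can come with a higher FKC level or with a lower PBS level. The E. tarda change between the times equals the PBS change plus the amount by which the difference from PBS shrank, so the choice ties both together. The E. tarda arrays of the 2 times lay on different slides, so their change over time cannot be told apart from a slide difference; the 6 spike-in probes differed by −0.34 to 0.43 between them (mean −0.04). The E. tarda level was higher at 12 h than at 6 h by 1 or more in 28 of the 44 members and lower in 9. The median was 1.22 beside −0.04 over the 8087 probes, of which 507 were higher by 1 or more and 4227 were lower. All 4 E. tarda arrays of 12 h lay above all 3 of 6 h in 22 members, beside 16.5% of the 8087 probes. The PBS level was lower at 12 h in 37 members, by 1 or more in 15 and by 2 or more in 7, with a median of −0.37 beside −0.00. Of the 8087 probes, 4046 had a lower PBS level at 12 h and 159 had a PBS change of −1 or less. All PBS arrays of 12 h lay below all PBS arrays of 6 h in 13 members, beside 5.05% of the 8087 probes. High PBS levels at 6 h helped to choose the members, and detection was required on the PBS arrays of 6 h only. Their PBS change is therefore shifted downwards in advance, and these counts do not support a lower PBS level at 12 h.

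On this basis the members fell into 3 sets, formed after the values were seen and not tested. In 23 members the PBS change was above −0.5. The E. tarda level was higher at 12 h by 1 or more in all 23, by 1.04 to 2.40 with a median of 1.46. The times did not overlap in 19, beside 16.5% of the 8087 probes. The conditions of the choice and the limit of this set together require a higher E. tarda level at 12 h in each of the 23. Of these 23, 16 were detected on all 22 arrays. Their S. iniae change at 6 h had a median of −0.52 and was −1 or less in 5. In 6 members the PBS change was between −1 and −0.5, and the E. tarda level was higher by 1 or more in 2 of them.

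In the remaining 15 members the PBS change between the times was −3.19 to −1.11, with a median of −1.86. The PBS arrays of the times did not overlap in 11, beside 5.05% of the 8087 probes, and the PBS change itself formed this set. The E. tarda level between the times had a median change of −0.11: it moved by less than 1 in 12, was lower at 12 h in 9 and was higher by 1 or more in 3, and in none did all arrays of 12 h lie above all of 6 h. Of these 3, CUST_7803_PI426483990 rests on single bright arrays. Its PBS change of −1.53 became −0.14 without replicate 2 of PBS at 6 h, which would place it outside these 15. Its E. tarda change of 1.93 became 0.40 without replicate 1 of E. tarda FKC at 12 h. Without that same array the E. tarda change of CUST_6372_PI426483990 fell from 1.32 to 0.80. CUST_7775_PI426483990, named after its values were seen, had E. tarda levels at 12 h of −4.39, −3.39, −5.21 and −2.01. It was well above background on no E. tarda array of 6 h and on 2 of 12 h. The S. iniae change at 6 h was −1 or less in 10 of the 15, with a median of −1.11. Only 1 of the 15 was detected on all 22 arrays. All 5 members detected on no PBS array of 12 h were among the 15, so their PBS change rests on signals near background. In 2 of them no E. tarda array of 12 h was well above background either. The difference of these 2 at 12 h thus compares background with background. In the first set the measured E. tarda level was low and then higher, across 2 slides, as the choice and the limit of the set required. In most of the 15 it was low at both times. Their PBS level, which formed the set, was lower at 12 h than at 6 h, within its slide but between its rows.

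CUST_8918_PI426483990 (contig JFC21468_1_code) had the largest PBS change of this last set and was named after its values were seen. It was well above background on no PBS array and 1 E. tarda array of 12 h, and on 2 E. tarda arrays of 6 h. Its low levels were thus read near background. On PBS arrays of 6 h its levels read −0.80, −2.46, 0.44 and 0.18, and those of 12 h, −3.10, −4.36, −3.71 and −4.24, did not overlap with them. E. tarda FKC gave levels of −4.11, −3.03 and −2.56 at 6 h, overlapping those of 12 h (−2.79, −4.11, −4.25 and −3.90). S. iniae FKC gave −2.63, −3.06 and −2.80 at 6 h, and −3.77, −4.09, −2.50 and −2.36 later. Apart from replicate 2, the PBS arrays of 6 h lay above all arrays of every other group.

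**Figure D4:**
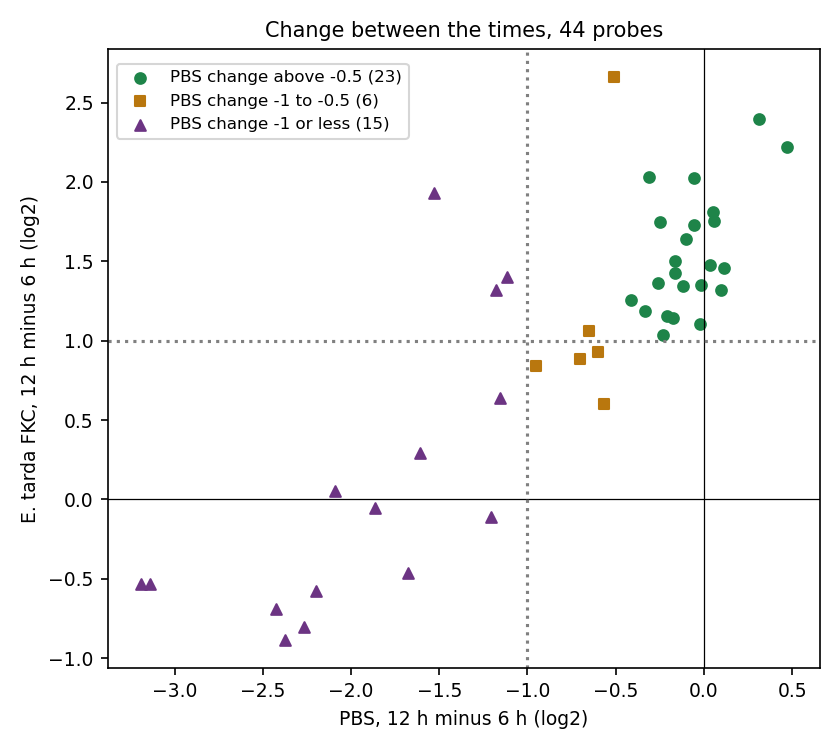
Change of the PBS level (horizontal) and of the E. tarda level (vertical) from 6 h to 12 h in log2 units, one point for each of the 44 probes in 3 sets by the PBS change (23, 6 and 15 probes). All 23 probes of the first set lie above the dotted line at 1, and 12 of the 15 with a PBS change of −1 or less lie below it. The choice ties both axes, and together with the limit of the first set it requires a higher E. tarda level at 12 h there.

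Values from arrays outside the choice were given for the times as well, with the replicate number used only to pick which arrays were left out. With E. tarda and PBS replicate 1, 2 or 3 of 6 h left out of the choice, the left-out E. tarda array minus the left-out PBS array had medians of −0.76, −1.15 and −1.04, and was below 0 in 74 of 93, 48 of 52 and 54 of 69 probes, beside 57.6%, 55.7% and 52.9% of all detected probes. With the same at 12 h, the medians were 0.11, −0.53, −0.55 and −0.45 for replicates 1 to 4, and the difference was below 0 in 17 of 38, 34 of 45, 37 of 48 and 36 of 50 probes, beside 55.1%, 56.0%, 55.9% and 57.8% of all detected probes. Over all detected probes the 12 h medians were −0.12, −0.13, −0.10 and −0.15. In 3 of the 4 cases the median on left-out arrays was further below 0 than the −0.16 of the 44 members over all arrays. The probe sets differed, with 32, 39, 39 and 40 probes shared with the 44. The −0.16 also includes the left-out arrays, so these medians are not a matched comparison.

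The E. tarda level between the times, on left-out arrays, had medians of 0.88, 0.92 and 0.34, and was higher by 1 or more in 34 of 72, 21 of 44 and 20 of 59 probes, beside 11.1%, 9.93% and 9.30% of all detected probes. The PBS level between the times, on left-out arrays of the one PBS slide, had medians of −0.34, −0.00, −0.21 and −0.16. It was lower by 1 or more in 19 of 58, 12 of 57, 13 of 56 and 16 of 61 probes, beside 4.47%, 6.41%, 4.09% and 4.99% of all detected probes. The S. iniae mean minus the left-out PBS array of 6 h had medians of −0.46, −0.54, −0.43 and −0.45, beside −0.05, −0.02, −0.03 and 0.03. These comparisons were added after the values were seen for the PBS and E. tarda courses, and carry no test.

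**Figure D5:**
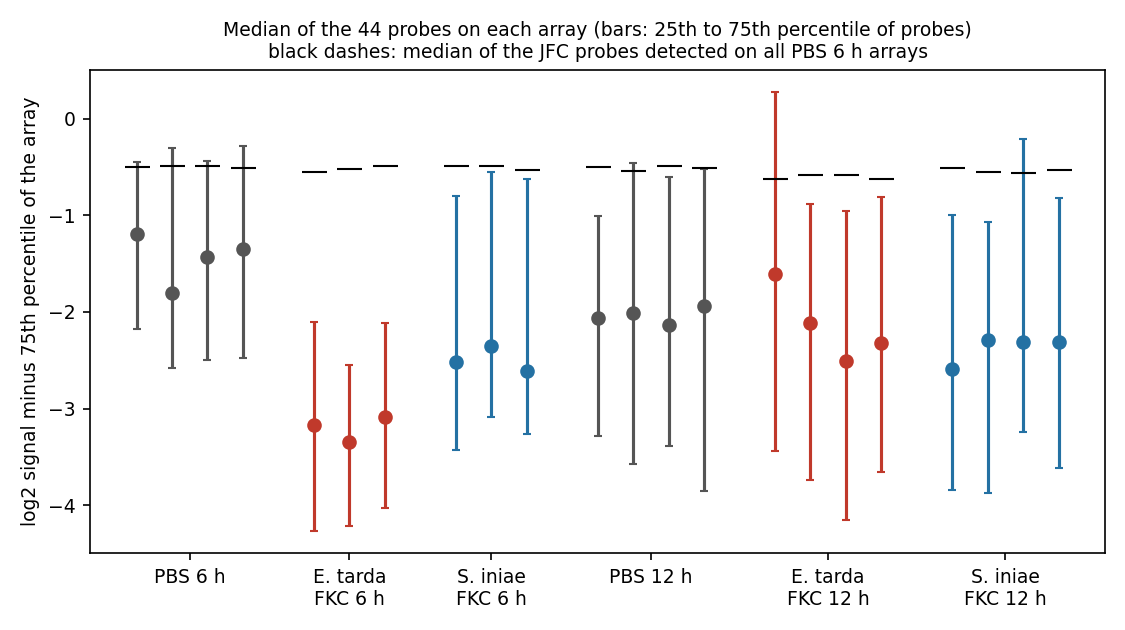
Median log2 level of the 44 probes on each array (points) with the 25th to 75th percentile of the probes (bars), and the median of the 8087 detected JFC probes on the same array (black dashes). The E. tarda 6 h arrays lie between −3.34 and −3.09, below all other arrays, and the PBS 6 h arrays between −1.80 and −1.196.

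Taken as one median per array, the members lay between −1.80 and −1.196 on the PBS arrays of 6 h, between −3.34 and −3.09 on the E. tarda arrays and between −2.61 and −2.36 on the S. iniae arrays. At 12 h the ranges were −2.13 to −1.94 for PBS, −2.51 to −1.60 for E. tarda and −2.60 to −2.29 for S. iniae. The 3 groups of 6 h did not overlap and E. tarda overlapped both others at 12 h; the choice fixed part of this order. Replicate 1 of E. tarda FKC at 12 h was the highest of its group in 26 of the 44 members, beside 35.6% of the 8087 probes, and had the lowest 75th percentile (209) and the fewest detected probes (8084). Without it the median E. tarda change at 12 h was −0.33, the median change between the times 0.98, and the number of members higher by 1 or more 21. Its part in the result was not tested.

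Many members were near the detection limit. On all 22 arrays, 19 of the 44 were well above background (43.2%, beside 81.0% of the 8087 probes). On the E. tarda arrays of 6 h, 23 were detected on all 3, 18 on some and 3 on none (beside 0.32% of the 8087 probes). For these 3 the difference is a bound, taking for each array the higher of the lowest signal among detected probes and the probe's own: CUST_6384_PI426483990 was at least 2.19-fold lower than PBS, CUST_7775_PI426483990 at least 2.23-fold and CUST_5921_PI426483990 at least 2.11-fold. After S. iniae FKC at 6 h, CUST_6384_PI426483990 was at least 1.999-fold and CUST_7288_PI426483990 at least 2.61-fold lower than PBS. These probes were named after their values were seen. At 12 h, 5 members were detected on no PBS array, 4 on no E. tarda array and 8 on no S. iniae array. Of the 8087 probes the shares were 1.19%, 1.58% and 1.41%.

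Each member was read from 1 spot per array, and 1 spot of 1 member, CUST_11352_PI426483990, was marked as an outlier by the scanner software. Its E. tarda levels at 12 h were 0.66, −2.67, −2.73 and −2.72. With outlier spots left out it no longer met the conditions, and the other 43 members did. The 44 contigs were distinct, 43 of the probes carried the name ending _1_code as did 13998 of the 14052 JFC probes, and the spots were spread over rows 6 to 192 and columns 2 to 75 of the array. Without any one array, 14 members met the conditions in all 22 cases and 30 dropped out in at least 1. The count of members depended most on replicate 1 of E. tarda FKC at 6 h, without which 80 probes met the conditions, 37 of them among the 44. Next came replicate 1 of PBS at 6 h, with 69 probes and 41 shared. The largest loss among the 44 came without replicate 2 of E. tarda FKC at 6 h. There 13 of them dropped out and 12 other probes entered, so the count of 43 hides the exchange. After normexp background correction and quantile normalization the same 44 probes had median changes at 6 h of −0.93 for E. tarda and −0.44 for S. iniae FKC, and 12 probes met the conditions, 6 of them shared.

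The 161 detected probes that were as low at 6 h but still below −0.5 at 12 h were set beside the 44 in other values. Their S. iniae change at 6 h had a median of −0.48, against −0.85 in the 44, and was −1 or less in 20 of 161, against 18 of 44. Their PBS change between the times had a median of −0.06 and was −1 or less in 14 of 161, against 15 of 44. Their E. tarda level between the times had a median change of 0.07 and was higher by 1 or more in 18 of 161, against 28 of 44. The 12 h difference from PBS, which separates the sets, is part of this last value, so the choice fixed much of it. Both sets were chosen on arrays that enter these values, so the differences were not tested.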

How the data were processed

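Total RNA was labelled with Cy3 and hybridised to 1-colour arrays, per the labels' protocols. The deposited scanner files hold the processed intensity of each spot, after background subtraction and detrending by Feature Extraction 10.7.3.1, per the file headers (9.5.3.1 per the submitters' processing notes). The authors' deposited table holds log2 values that, in 99.99% of cells, lay within 0.1 of the log2 processed signal minus the 75th percentile and minus the PBS median of the same time.

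Control spots were left out, and log2 processed intensities were scaled to the 75th percentile of each array and averaged by probe. Groups followed the sample titles. The members, lists and comparisons were chosen with earlier results of these data known. Probes named in the text were the pair with the lowest E. tarda change at 6 h and the pair with the highest at 12 h among members detected on all 22 arrays; others are marked where named. S. iniae FKC against PBS at 6 h was tested with limma 3.58.1 in R 4.3.3 on 11066 probes well above background on at least 3 arrays (22 arrays, 16 residual degrees of freedom, outlier-flagged spots left out, adjusted p under 0.05), after the fit was tested on simulated data. Numbers of arrays limit the precision. Slide equals scan, and each group lay on 1 slide, so no slide term could be fitted beside the groups. Alternatives covered scaling, normalization, background correction (normexp, offset 50), detection, thresholds and single arrays.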

Additional observations from a re-analysis of the deposited data

Results flagged for a closer look

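In the member with the largest fall, CUST_7803_PI426483990, replicate 2 of PBS at 6 h stood far above the other arrays of its group at 4.81, and replicate 1 of E. tarda FKC at 12 h at 3.58. In CUST_1170_PI426483990, replicate 2 of PBS at 12 h stood apart at 0.56. The median over the 44 members was set apart on replicate 1 of S. iniae FKC at 12 h, at −2.60. Such a gap was found in 13 of 176 groups of 4 arrays over the members (7.39%), and chance flags about 1 in 20. No share over all detected probes stands beside this count, so it is not read as a trait of the members.

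CUST_1170_PI426483990 was below the PBS mean on every E. tarda array of 6 h and above it on every S. iniae array, with a mean S. iniae change of 0.91; this held for 2 of the 44 members and for 3.12% of the 8087 detected probes, and the difference was not tested. The same probe was above the PBS mean on every E. tarda array at 12 h, with a mean change of 0.78, after lying below it on every array at 6 h. This held for 3 of the 44 members and for 3.33% of the detected probes, and was not tested.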

How the results depend on the processing

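The number of probes that met the conditions was 67 with scaling to the median (44 shared with the reported members), 77 with quantile normalization (43 shared), 12 after normexp and quantile normalization (6 shared), 137 without the condition on detection, 19 with detection on all arrays, 211 for a fall of 1 or more and 6 for a fall of 2 or more, and 39 to 80 without single arrays. Normexp and quantile normalization gave smaller medians over the members: −0.93 for E. tarda and −0.44 for S. iniae FKC against PBS at 6 h, −0.38 between the preparations at 6 h and 0.64 for E. tarda FKC between the times, with 4 members lower in PBS and 10 higher after E. tarda FKC by 1 or more. The median difference between the preparations at 6 h was −1.12 to −0.80 without single arrays. Scaling to the median moved the E. tarda change between the times over all 8087 probes from −0.04 to 0.22, and turned the members' S. iniae median at 12 h from −0.09 to 0.04; quantile normalization gave 0.01. Limma called 2 members lower after S. iniae FKC at 6 h in a fit of both groups alone, 13 after normexp, 11 with array weights, and 1 to 5 without single arrays. Over all probes it called 10, 373, 282 and 12 to 68 lower in these fits, beside 61 in the reported fit. With detection required on all arrays, only 19 members and 6779 probes were tested. Of these, 3 members and 48 probes were called lower. Replicate numbers were not taken to pair the samples, since no pair of groups checked had every correlation over 0.1: deviations of same-numbered S. iniae and PBS arrays correlated at 0.07, 0.09 and −0.07, those of E. tarda and S. iniae arrays of 6 h at 0.14, 0.06 and 0.21, and the fit with the replicate block called 4 members. Of 48 values of the named probes under other processing, 43 moved by less than the spread between arrays, and 5 by more; 1 changed sign, the S. iniae change of CUST_11367_PI426483990 at 12 h, from −0.13 to 0.01 with scaling to the median. Signals near background limit the 12 h values of members detected on few arrays. The comparisons over time, their alternatives, and the fit that kept outlier spots (4 members) were chosen after seeing the data.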
